A study of Mus musculus with 36 samples.

Results

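How loss of Setd1a changes the transcriptome beyond what loss of Bod1L does was measured in 24 of the 36 single-end RNA-seq libraries of the series: all 12 libraries of the Setd1a line and all 12 of the Bod1L line. The members are therefore libraries, taken by their titles, and the quantity described is a difference of differences. For each gene the knockout effect is the log2 ratio of knockout to wild-type counts, and the difference is the Setd1a knockout effect minus the Bod1L knockout effect, averaged over 3 media with equal weight. A difference below 0 means that Setd1a loss lowered the gene further, or raised it less, than Bod1L loss did.

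SETD1A is a histone methyltransferase that places methyl groups on lysine 4 of histone H3, a mark of active promoters, and works in a complex with shared subunits such as WDR5, ASH2L, RBBP5 and DPY30. The complex is brought to unmethylated CpG-rich promoters in part by its CXXC1 (CFP1) subunit. BOD1L, a large protein known for protecting stalled replication forks, is named in the title of the series as a subunit of this complex, and the comparison asks which transcripts respond to the enzyme and not, or not as strongly, to that subunit.

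Each line has knockout and wild-type mouse cells in 3 media with 2 replicates labelled biological, so each line gives 6 knockout and 6 wild-type libraries. Naive embryonic stem cells grew with LIF, PD0325901 and CT99021 (called 2i), embryonic stem cells labelled as cycling grew with LIF and serum (called FCS), and epiblast-like stem cells grew with Activin A and FGF2 (called EpiSC medium). Cell type is thus not separable from medium. The titles name tamoxifen for knockout cells of both lines and for no wild-type cells, so that treatment and genotype cannot be told apart, although both knockouts carry it and both wild types lack it. The labels give genotypes Setd1a KO, Bod1L KO and WT and no allele, and the p values measure the spread between cultures of 1 line each, which may be technical.

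Gene counts ran from 24490158 to 40591108 per library. Knockout and wild-type libraries of the same line, medium and replicate number deviated together and were used as 12 pairs, 6 in each line. Naive pluripotency genes summed to between 5487 and 7188 CPM (counts-per-million, scaled to library size) in 2i, 2469 to 4198 CPM in FCS and 359 to 1987 CPM in EpiSC medium, in the order of the labelled cell types. In EpiSC medium the lines did not overlap, at 359 to 528 CPM in the Bod1L line and 995 to 1987 CPM in the Setd1a line. The part of this split in the differences was not tested. Mitochondrially encoded genes took 1.98% to 7.71% of counts, and their share in knockout minus wild-type cells ran from -0.761 to 4.28 percentage points over the Setd1a pairs and from -1.16 to 2.21 over the Bod1L pairs. The Setd1a knockout library of EpiSC replicate 1 stood apart in matrix genes, with 20354 CPM summed over the 25 tested matrix and adhesion genes against 1529 to 10204 CPM in the other 23 libraries. Library numbers in the header of the counts fall in a lower and a higher series, called here the earlier and the later run. These names rest on the numbers alone. The later run holds the 8 EpiSC libraries and Setd1a knockout 2i replicate 1, whose wild-type partner is in the earlier run. The median gene differed by 0.00 between the lines' effects, and by -0.06 among the 12303 genes of at least 5 CPM.

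The targeted genes check the labels. Bod1l (ENSMUSG00000061755, chromosome 5, 41787538 to 41844315 on GRCm38) was at 33.8, 48.4 and 62.7 CPM (lowest, median and highest of 6) in Bod1L knockout cells and at 167, 207 and 347 CPM in their wild type, with no overlap. In Setd1a knockout cells it was at 236, 258 and 290 CPM against 201, 216 and 301 in wild type, and these groups overlapped. The difference was 2.42 ± 0.18 (log2 ± SE; edgeR adjusted p = 9.61e-06), and the exact 2-sided permutation test of the 6 against 6 pair differences gave p = 0.00216, the smallest its 924 splits can give. Setd1a (ENSMUSG00000042308, chromosome 7, 127776670 to 127800122) was at 37.5, 39.2 and 44.1 CPM in Setd1a knockout cells and 41.2, 53.8 and 59.2 CPM in wild type, a knockout effect of -0.38 (adjusted p = 0.0289). In the Bod1L line it was at 31.6, 44.5 and 66.3 against 36.9, 49.5 and 57.2 CPM. The difference of these effects was -0.26 ± 0.17 (adjusted p = 0.48; exact permutation p = 0.182). Gene totals include exons outside any deletion, so the level of Setd1a checks its loss only weakly.

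Of 22953 genes tested, 305 (1.33%) had a Setd1a effect that differed from the Bod1L effect at an adjusted p below 0.05: 135 (0.588%) had a difference below 0 and 170 (0.741%) one above 0. They are called lower and higher genes, which speaks of the difference and not of the level after Setd1a loss. By comparison, the Setd1a effect itself passed for 6599 genes (28.8%) and the Bod1L effect for 1619 (7.05%). Falls numbered 2924 (12.7% of all genes tested) and 1005 (4.38%), and rises 3675 (16.0%) and 614 (2.68%). The count rests on the pairing. Without the pairs as a block only Bod1l passed. In that fit 194 of the 305 genes had an unadjusted p below 0.05, against 1243 of the 22953 tested. All 305 kept their direction, as did 22312 of the 22953. Selection of the 305 on these same libraries raises both counts by itself. With the pairs as a random effect in limma voom, 77 genes passed, 62 of them among the 305. The common biological coefficient of variation fell from 0.391 without the block to 0.182 with it.

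Single pairs also moved the count. Without 1 Setd1a pair it was 50 or 79 (2i replicate 1 or 2), 1180 or 364 (FCS) and 90 or 517 (EpiSC), and without 1 Bod1L pair 38 or 170 (2i), 407 or 58 (FCS) and 36 or 524 (EpiSC). All 305 genes kept their direction each time, and 25 passed in all 12 of these fits. Each of these fits reuses pairs on which the 305 were selected, so a kept direction adds no support. No other tested gene passed in all 12, as the count over all genes tested was 25 too. Within the earlier run 1 gene passed, and within the later run, where every pair is in EpiSC medium, 102 passed, 27 of them among the 305. The earlier-run fit left out the Setd1a 2i pair of replicate 1, and the later-run fit tested 20044 genes. Both fits held fewer pairs than the main one and differed in media, so their counts do not compare the runs. The plot of calls under each setting shows this spread.

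**Figure D1:**
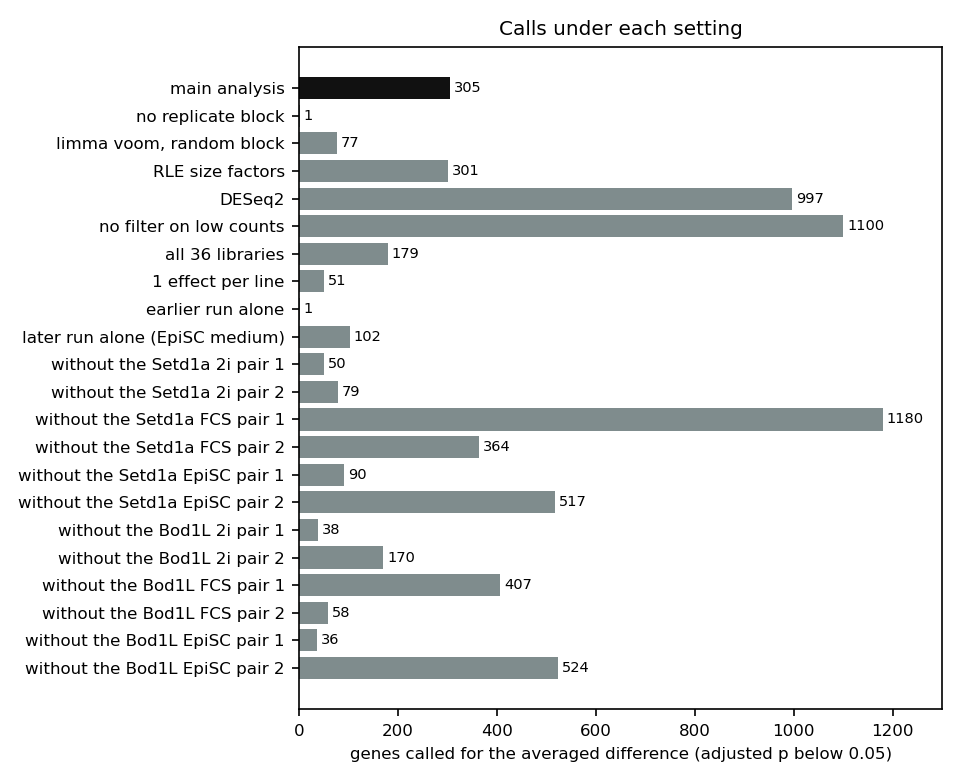
Number of genes called for the averaged difference (horizontal axis) in the main analysis (black) and under each other setting (grey). The count is 305 in the main analysis, 1 without the replicate block, and between 36 and 1180 when 1 pair is left out.

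For 230 of the 305 genes the Setd1a effect passed and the Bod1L effect did not (93 lower and 137 higher), which does not show that Bod1L loss left them as they were: Rpl22l1, Bloc1s6 and Jrk of this group were lower in knockout than in wild type in 6 of 6 Bod1L pairs. For 55 both passed in 1 direction with the larger effect in the Setd1a line (37 lower and 18 higher). For 13 the Bod1L effect passed and the Setd1a effect did not, and for 5 the effects passed in opposite directions. The remaining 2, chosen here after their values were seen, were Cntln, for a centriole protein, and Ganc, for a glucosidase: both fell in both lines, and further in the Bod1L line (-2.11 against -0.84 for Cntln and -1.75 against -0.85 for Ganc). The 135 lower genes had a median Setd1a effect of -1.04 and a median Bod1L effect of -0.13, and the 170 higher genes 1.08 and -0.02. The sign was shared by all 3 media in 299 of the 305 genes, against 43.7% of all genes tested, a share that selection on the average raises by itself. The 6 Setd1a and 6 Bod1L pair differences did not overlap in 103 of the 305 (59 lower and 44 higher), against 1.36% of all genes tested (0.767% lower and 0.593% higher). Selection on these same pairs raises that share by itself too. Where pairs of a single called gene are said not to overlap, that describes the gene and adds no second test.

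**Figure D2:**
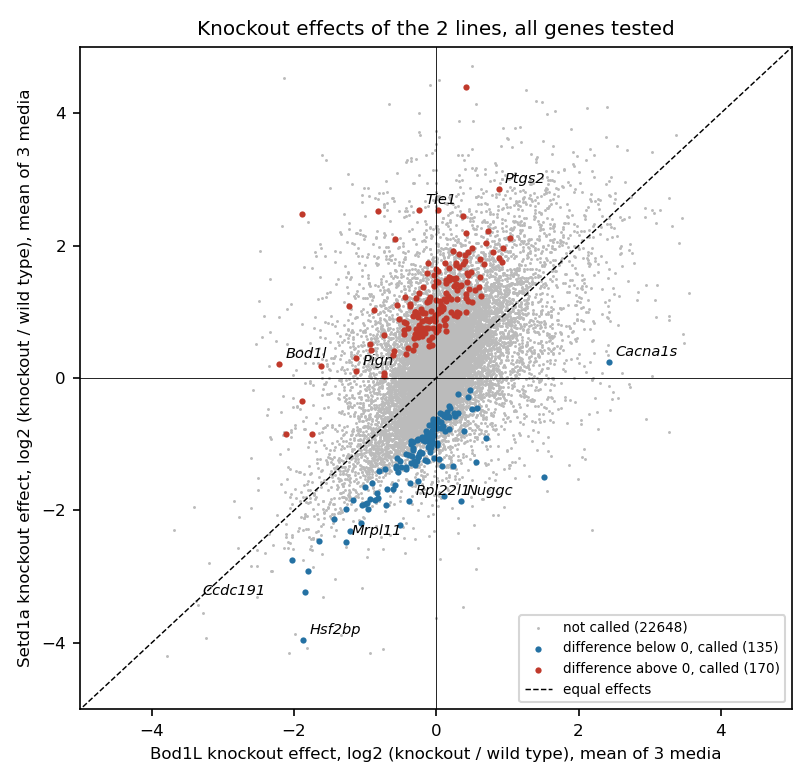
Knockout effect in the Bod1L line (horizontal, log2) against that in the Setd1a line (vertical, log2), 1 point per tested gene, averaged over 3 media. The 135 genes called lower (blue) and 170 called higher (red) lie off the dashed line of equal effects, mostly near a Bod1L effect of 0, and 4 uncalled genes fall outside the axes.

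The genes that fell after Setd1a loss and stayed called without any 1 of the 12 pairs included Rpl22l1, Bloc1s6, Nuggc, Oasl2 and Crabp2. Rpl22l1 (ENSMUSG00000039221, chromosome 3, 28805436 to 28807424), for a paralog of ribosomal protein L22, was at 22.1, 45.5 and 58.8 CPM in Setd1a knockout cells and 97.2, 133 and 274 CPM in wild type. In the Bod1L line it was at 56.1, 88.0 and 116 against 78.5, 117 and 148 CPM. The Setd1a groups did not overlap and the Bod1L groups did, and the difference was -1.48 ± 0.18 (adjusted p = 0.00217).

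Bloc1s6 (ENSMUSG00000005804, chromosome 2, 122738503 to 122749475), for a subunit of the BLOC-1 complex of lysosome-related organelles, was at 5.46, 9.41 and 12.1 CPM in Setd1a knockout cells and 13.6, 31.4 and 32.5 CPM in wild type. In the Bod1L line the values were 12.3, 28.3 and 46.2 against 13.6, 34.1 and 50.5 CPM. Its 6 Setd1a pairs lay between -1.89 and -1.31 (log2) and its 6 Bod1L pairs between -0.39 and -0.13, so the pairs of the 2 lines did not overlap (-1.31 ± 0.14; adjusted p = 7.99e-04). Nuggc, for a nuclear GTPase, was a low transcript at 0.276, 0.473 and 0.541 CPM in Setd1a knockout cells against 0.722, 1.43 and 3.60 in wild type. In the Bod1L line it was at 1.46, 2.52 and 4.88 against 0.735, 2.21 and 5.36 CPM, and the difference was -2.21 ± 0.31 (adjusted p = 0.00638).

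Oasl2, for an interferon-induced oligoadenylate synthetase-like protein, fell in the Setd1a line (-1.78) and had a Bod1L effect of 0.10 (difference -1.88 ± 0.23; adjusted p = 0.00217). Its pairs overlapped between the lines: the Setd1a pairs ran from -2.76 to -0.22, and the Bod1L pairs were -1.26 and -1.18 in FCS and between 0.55 and 1.28 elsewhere. Crabp2, a carrier of retinoic acid inside the cell, had Setd1a pairs from -1.84 to -0.85 and Bod1L pairs from -0.78 to 1.09, which did not overlap (-1.41 ± 0.18; adjusted p = 0.0023).

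Other genes fell in both lines and further without Setd1a. Hsf2bp (ENSMUSG00000002076, chromosome 17, 31944769 to 32034508), for a BRCA2-binding protein of meiotic recombination, was at 1.14, 1.70 and 2.46 CPM in Setd1a knockout cells and 8.78, 31.0 and 50.1 CPM in wild type. In the Bod1L line it was at 0.462, 5.29 and 17.8 against 0.843, 35.3 and 60.1 CPM, and both wild-type libraries in EpiSC medium held under 1 CPM there. Its knockout effects were -3.96 and -1.87 (difference -2.09 ± 0.33; adjusted p = 0.00955), and without the Bod1L EpiSC pair of replicate 1 the adjusted p was 0.0512.

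Mrpl11 (ENSMUSG00000024902, chromosome 19, 4962306 to 4966995), for a protein of the mitochondrial ribosome, was at 6.87, 8.35 and 16.6 CPM without Setd1a against 42.4, 47.9 and 63.8 CPM, and at 12.8, 18.3 and 42.9 without Bod1L against 40.5, 43.9 and 63.2 CPM (-1.20 ± 0.18; adjusted p = 0.00932). Supv3l1, for a mitochondrial RNA helicase, had 6 Setd1a pairs between -1.83 and -1.59 and 6 Bod1L pairs between -1.12 and -0.57 (-0.90 ± 0.14; adjusted p = 0.00955). Ccdc91, for a Golgi trafficking protein, fell by 2.91 and by 1.80 (difference -1.11 ± 0.16; adjusted p = 0.00882). For these 3 genes the pairs of the lines did not overlap. Mrpl11 and Supv3l1 passed in all 12 fits with a pair left out, as did Ccdc91, Jrk (-1.22 ± 0.18) and the hypoxia-induced mitophagy gene Bnip3 (-0.98 ± 0.15). Supv3l1, Ccdc91 and Jrk were chosen after their values were seen, for passing in all 12 of those fits.

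**Figure D3:**
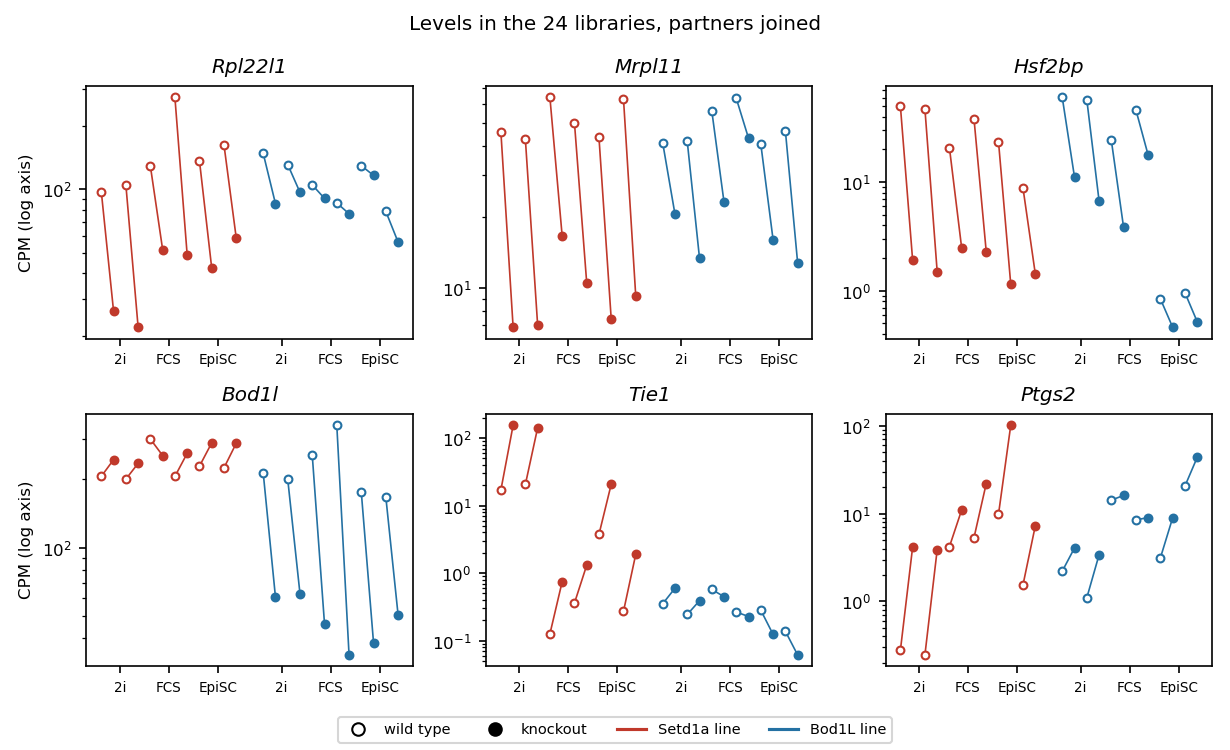
CPM (log axis) of 6 genes in each of the 24 libraries, wild type (open) joined to its knockout partner (filled), Setd1a line in red and Bod1L line in blue. Rpl22l1 falls in all 6 Setd1a pairs to between 22.1 and 58.8 CPM, and Bod1l falls in the 6 Bod1L pairs to between 33.8 and 62.7 CPM.

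The remaining genes of lowest difference were less secure or had low counts. Blnk, for a B cell adaptor protein, had the lowest value (-3.01 ± 0.53; adjusted p = 0.0187), but its Bod1L pair of EpiSC replicate 1 stood at 3.15 against -0.00 to 0.63 in the other 5, and without that pair the adjusted p was 1. Cacna1s, for the muscle L-type calcium channel, reached -2.19 ± 0.50 (adjusted p = 0.0432) through a rise in the Bod1L line (2.43) with a Setd1a effect of 0.24, and passed in 5 of the 12 fits with a pair left out. Psmb8 (-1.82), Gbp3 (-1.60), Gbp2 (-1.56) and Hpdl (-1.27) passed in 5, 6, 7 and 6 of those fits. Psmb8 codes for an immunoproteasome subunit, Gbp2 and Gbp3 for guanylate-binding proteins of a family of near copies between which reads may have been split, and Hpdl for a mitochondrial dioxygenase-like protein.

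Among the genes that were higher after Setd1a loss, Tie1 and Ptgs2 passed in all 12 fits with a pair left out. Tie1 (ENSMUSG00000033191, chromosome 4, 118471191 to 118490061), for an endothelial receptor tyrosine kinase, was at 0.745, 11.3 and 155 CPM in Setd1a knockout cells and 0.126, 2.05 and 20.6 CPM in wild type. It was barely present in the Bod1L line, at 0.0612, 0.308 and 0.597 against 0.137, 0.273 and 0.573 CPM. All 6 Setd1a pairs lay between 1.82 and 3.19 and all 6 Bod1L pairs between -1.09 and 0.74, and the difference was 2.78 ± 0.29 (adjusted p = 6.36e-04).

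Ptgs2 (ENSMUSG00000032487, chromosome 1, 150100031 to 150108227), for the inducible cyclooxygenase of prostaglandin synthesis, was at 3.87, 9.14 and 102 CPM without Setd1a against 0.245, 2.88 and 9.81 CPM, and at 3.39, 8.98 and 43.6 without Bod1L against 1.10, 5.80 and 20.5 CPM. It rose in both lines, by 2.85 and by 0.88 (difference 1.97 ± 0.25; adjusted p = 0.00217). Its Setd1a pairs ran from 1.39 to 3.90 and its Bod1L pairs from 0.09 to 1.61, with overlap. Egfr, the epidermal growth factor receptor, had Setd1a pairs from 0.58 to 2.06 and Bod1L pairs from -0.86 to 0.99 (1.31 ± 0.20; adjusted p = 0.00955). Abca1, an exporter of cholesterol, rose by 1.70 in the Setd1a line with a Bod1L effect of 0.28 (difference 1.42 ± 0.23; adjusted p = 0.0108). Phlda1, an immediate response gene of growth factor signalling, and Trim66, for a chromatin reader of the TRIM family, had differences of 1.08 ± 0.17 and 1.36 ± 0.21, and their pairs did not overlap between lines.

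Other genes that were higher and passed in all 12 fits were Clcn5, for a chloride-proton exchanger (1.14 ± 0.17), P2rx7, for an ATP-gated channel (1.11 ± 0.18), Dhtkd1, for a mitochondrial dehydrogenase (0.98 ± 0.15), Snapc3, for a subunit of the small nuclear RNA activating complex (0.97 ± 0.15), and Cald1, for the actin-binding caldesmon (0.94 ± 0.15). With Egfr, Abca1, Trim66 and Pign, these were chosen after their values were seen, for passing in all 12 of those fits. Pign, for an enzyme of GPI anchor synthesis, differs from them in kind. Its Setd1a effect was 0.10 and it fell by 1.12 in the Bod1L line (difference 1.22 ± 0.16; adjusted p = 0.00403), with Bod1L pairs from -1.50 to -0.35 and Setd1a pairs from -0.55 to 0.37.

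Several of the highest differences rested on few reads or few pairs. Col3a1, for a fibrillar collagen, had the highest value (4.37 ± 0.75; adjusted p = 0.0187), which came from 2i, where no library exceeded 0.662 CPM and 4 held 0. In FCS and EpiSC medium its differences were 0.61 and 0.85. Olfr836, for an olfactory receptor of a large gene family (3.98 ± 0.83; adjusted p = 0.0334), had a median of 0.0507 CPM in Setd1a wild type and 1.10 in knockout cells, and passed in 2 of the 12 fits. Dchs2 (2.69), Nlrc3 (2.51), Cdx2 (2.32), Chit1 (2.07), Npas3 (1.91), Sh2d4b (1.84) and P2rx3 (1.80) passed in 5, 8, 7, 8, 4, 8 and 9 of them. Cdx2, a transcription factor of trophectoderm and the caudal embryo, had differences of 2.88 in 2i, -0.15 in FCS and 4.24 in EpiSC medium, from levels of 0.414 to 8.56 CPM in Setd1a knockout cells. P2rx3, for an ATP-gated channel of sensory neurons, fell by 1.62 in the Bod1L line with a Setd1a effect of 0.18.

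**Figure D4:**
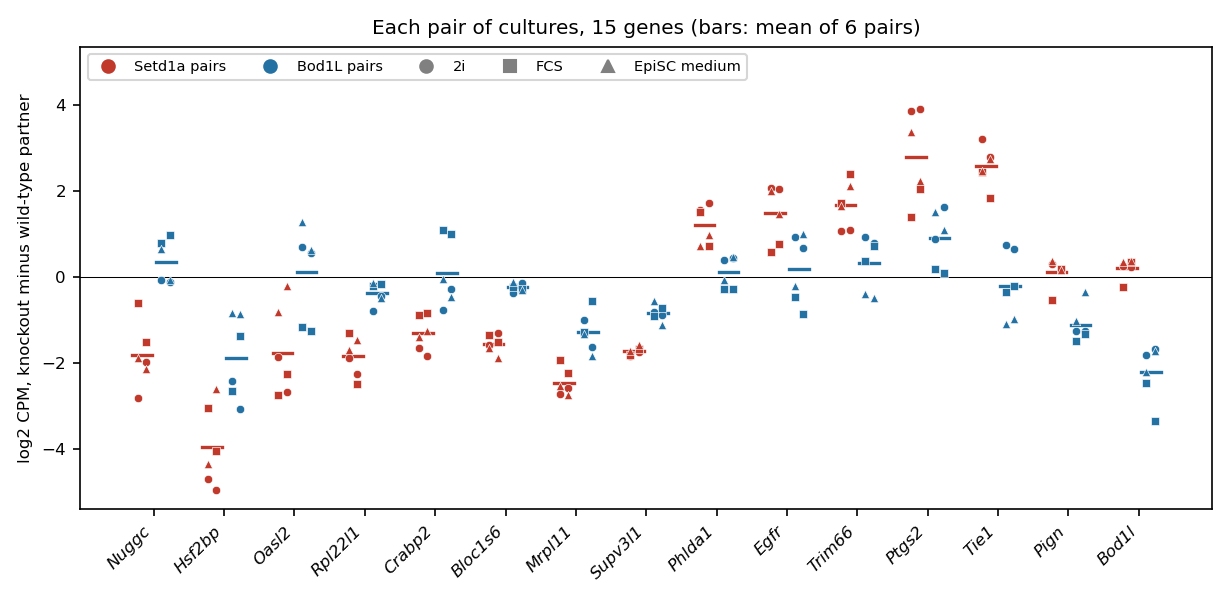
Log2 CPM of the knockout minus its wild-type partner for 15 genes, Setd1a pairs in red and Bod1L pairs in blue, with a bar at the mean of 6 pairs and a symbol for each medium. Bloc1s6 and Supv3l1 show groups of pairs that do not overlap, while the Oasl2 pairs of the lines overlap through the FCS cultures of the Bod1L line.

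CpG dinucleotides, the sequence that CXXC1 binds, were counted in promoters of 5 lower and 5 higher genes named here, and the windows with fewest and most in each direction are shown. These genes were picked by hand, and Bloc1s6 and Fdft1 were picked as well but had no matched window. Each line below gives 300 bases from 250 before to 50 after the RefSeq start on GRCm38.p6, 5′ to 3′ on the gene's strand, with CpG in capitals. The lower genes are Mrpl11 on the plus strand at chr19:4962056-4962355 and Rpl22l1 on the plus strand at chr3:28805258-28805557. The higher genes are Trim66 on the minus strand at chr7:109508085-109508384 and Col4a1 on the minus strand at chr8:11312777-11313076.
Mrpl11: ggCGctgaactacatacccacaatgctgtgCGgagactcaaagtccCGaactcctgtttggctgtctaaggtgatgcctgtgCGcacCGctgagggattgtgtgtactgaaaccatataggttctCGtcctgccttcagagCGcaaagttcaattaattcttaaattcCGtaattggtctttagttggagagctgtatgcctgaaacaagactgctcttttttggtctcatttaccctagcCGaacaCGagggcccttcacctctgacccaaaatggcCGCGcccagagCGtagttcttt
Rpl22l1: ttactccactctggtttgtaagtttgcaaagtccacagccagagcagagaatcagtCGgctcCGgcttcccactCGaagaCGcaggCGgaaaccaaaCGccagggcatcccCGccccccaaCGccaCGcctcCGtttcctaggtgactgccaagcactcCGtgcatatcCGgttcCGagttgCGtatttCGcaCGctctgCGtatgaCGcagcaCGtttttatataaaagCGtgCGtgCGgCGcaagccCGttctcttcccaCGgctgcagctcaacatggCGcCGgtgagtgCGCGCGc
Trim66: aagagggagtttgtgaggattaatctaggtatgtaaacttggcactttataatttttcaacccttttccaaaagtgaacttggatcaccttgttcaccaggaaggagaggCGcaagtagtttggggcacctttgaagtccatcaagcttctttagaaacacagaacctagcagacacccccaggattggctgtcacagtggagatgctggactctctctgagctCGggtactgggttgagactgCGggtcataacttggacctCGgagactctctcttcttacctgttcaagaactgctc
Col4a1: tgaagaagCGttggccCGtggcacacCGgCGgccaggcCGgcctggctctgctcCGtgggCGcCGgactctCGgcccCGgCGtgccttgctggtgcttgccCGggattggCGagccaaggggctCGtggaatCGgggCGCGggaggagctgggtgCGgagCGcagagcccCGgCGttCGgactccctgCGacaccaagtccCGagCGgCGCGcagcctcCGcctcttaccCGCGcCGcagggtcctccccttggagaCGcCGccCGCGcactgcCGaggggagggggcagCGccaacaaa

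Counted once for both strands, the windows of the lower genes hold 13 CpG for Mrpl11, 15 for Tpi1, 20 for Hsf2bp, 28 for Supv3l1 and 30 for Rpl22l1. Those of the higher genes hold 4 for Trim66, 7 for Tie1, 15 for Egfr, 16 for Ptgs2 and 37 for Col4a1, so the ranges overlap. The RefSeq start lay 212 bases from the start of the counted gene for Tie1, 138 for Tpi1 and 72 for Rpl22l1. The median over the 13752 tested genes with a window was 18, and 13.1% of those windows held fewer than 5. Windows matched 74.1% of the lower, 68.8% of the higher and 59.9% of all tested genes, under the 80% needed, so a comparison of promoter content between these sets is void.

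Counts of the gene lists are read against 1.33% of all genes tested, a median difference of 0.00, and 49.5% of all genes tested (57.7% of those of at least 5 CPM) with a difference below 0. In cholesterol synthesis 6 of 24 genes were lower and none was higher (median difference -0.49, 23 of 24 below 0). They were Fdps (-0.86 ± 0.17; adjusted p = 0.0243), Lss (-0.82 ± 0.15), Insig1 (-0.78 ± 0.16), Mvd (-0.77 ± 0.17), Fdft1 (-0.75 ± 0.14; adjusted p = 0.0196) and Dhcr7 (-0.72 ± 0.14). All but the sterol sensor Insig1 are enzymes of the pathway. Fdft1, for squalene synthase, was at 49.6, 57.6 and 109 CPM without Setd1a against 62.0, 114 and 194 CPM, and at 55.7, 95.0 and 121 without Bod1L against 57.0, 96.1 and 141 CPM. In this list the Setd1a effect passed as a fall for 15 genes and the Bod1L effect for none. Each of the 6 lost its call in at least 6 of the 12 fits with a pair left out, where between 0 and 8 list members passed and the median stayed between -0.55 and -0.44.

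Glycolysis and hypoxia genes gave 6 lower and 1 higher of 25 (median -0.47, 19 below 0). Bnip3 was followed by Tpi1 (-0.91 ± 0.17; adjusted p = 0.0193), Ldha (-0.83 ± 0.18), Pgk1 (-0.80 ± 0.15), Pdk1 (-0.77 ± 0.17) and Pfkl (-0.63 ± 0.15), which apart from the pyruvate dehydrogenase kinase Pdk1 code for glycolytic enzymes. Tpi1 was at 78.0, 118 and 263 CPM without Setd1a against 181, 226 and 694, and at 120, 324 and 575 without Bod1L against 202, 348 and 631 CPM. The exception was Vegfa, the vascular growth factor (0.90 ± 0.18; adjusted p = 0.0261), whose pairs did not overlap. The count of this list ranged from 1 to 10 with a pair left out.

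Mitochondrial translation gave 3 lower of 36 (median -0.27, 34 below 0): Mrpl11, Mrpl2 (-0.93 ± 0.19) and the initiation factor Mtif2 (-0.66 ± 0.13), all 3 lowered in both lines. With 1 pair left out, 1 to 9 of the list passed. The list's Setd1a effect passed as a fall for 18 genes and its Bod1L effect for 9. Nuclear genes of oxidative phosphorylation had no call in 38 (median -0.20, 30 below 0), with Sdhc at -0.62 ± 0.16 (adjusted p = 0.0689). The list median was -0.11 without the Bod1L EpiSC pair of replicate 1, -0.12 without the Setd1a FCS pair of replicate 2, and -0.32 with 4 calls without that of replicate 1. The mitochondrial share of counts, knockout minus wild type, moved by 1.54 percentage points in the Bod1L EpiSC pair of replicate 1. In the Setd1a FCS pairs it moved by -0.761 and 0.652. It moved most in the Setd1a 2i pairs (3.21 and 4.28), and without either of these the list median was -0.21. The part of the mitochondrial share in these values was not tested.

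In homologous recombination 29 of 51 genes fell after Setd1a loss and 18 after Bod1L loss, and for 2 the difference was lower (median -0.22): Hsf2bp and the helicase gene Mcm8 (-0.81 ± 0.15; adjusted p = 0.0193). Mcm8 fell by 2.46 and by 1.65. Without 1 pair 0 to 3 of this list passed, and the median was -0.12 without the Setd1a EpiSC pair of replicate 1. End joining had 1 of 14, Ercc6l2 (-0.71 ± 0.14; adjusted p = 0.0242), at 7.26, 8.76 and 10.9 CPM without Setd1a and 13.5, 15.7 and 18.0 without Bod1L, from wild-type values of at least 47.4 CPM, so the knockout groups did not overlap each other. Excision and mismatch repair had 1 of 32, the break sensor Parp2 (-0.60 ± 0.14), and the Fanconi (20 genes) and damage checkpoint (21) lists had none. In the 36 replication genes none passed, yet 35 were below 0 (median -0.34), the Setd1a effect passed as a fall for 23 and the Bod1L effect for 1. Pcna, the sliding clamp, was at -0.57 ± 0.16 (adjusted p = 0.0785). In 22 genes of G2 and mitosis none passed and 20 were below 0 (median -0.28, and -0.18 without the Setd1a EpiSC pair of replicate 1).

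Genes with the largest falls of both lines in earlier results of these data are given for comparison, having been chosen for that. Ccdc191 had a difference of 0.01 with a 95% interval from -0.41 to 0.42, from falls of 3.37 and 3.38. The mitochondrial amidotransferase gene Gatb had -0.23 (-0.69 to 0.24), the glucosyltransferase gene Alg8 -0.32 (-0.80 to 0.15) and the carbonyl reductase gene Cbr4 -0.28 (-0.83 to 0.27). Det1, for a partner of the COP1 ubiquitin ligase, had -0.80 (-1.25 to -0.35; adjusted p = 0.0709). Of all 1005 genes lowered by Bod1L loss, 52 had a difference that passed, to be read against 1.33% of all genes tested. The Bod1L pairs enter both that selection and the difference. Over all 1005 genes the median effect was -0.81 in the Bod1L line, where they were selected, and -0.97 in the Setd1a line. Over these 1005 genes the median of single Setd1a pairs ran from -1.10 to -0.83.

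The integrated stress response list, of genes induced through ATF4, had 5 of 26 higher and none lower (median 0.41, 1 below 0). Its median Setd1a effect was 0.28 and its median Bod1L effect -0.15. Ddit3, for the stress transcription factor CHOP, was at 12.4, 26.3 and 43.1 CPM without Setd1a against 6.03, 8.36 and 16.9, and at 5.71, 8.44 and 29.5 without Bod1L against 4.20, 9.38 and 34.1 CPM. All 6 Setd1a pairs were above 0, from 0.56 to 2.49, and the Bod1L pairs ran from -0.87 to 0.97 (1.42 ± 0.26; adjusted p = 0.0184). The others were Vldlr (1.15 ± 0.27), Atf3 (1.01 ± 0.24), the folate enzyme gene Aldh1l2 (0.92 ± 0.21) and Atf5 (0.80 ± 0.17). Ddit3 passed in 10 of the 12 fits with a pair left out and the others in 3 to 5, and without the Bod1L EpiSC pair of replicate 1 Ddit3 had an adjusted p of 0.0557. Over these fits 0 to 7 of the list passed, and its median was 0.23 without the Bod1L 2i pair of replicate 1.

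Of 28 p53 targets 2 were higher, Mdm2 (0.61 ± 0.14) and the kinase gene Plk2 (0.78 ± 0.16), and both rose in both lines. Mdm2, the ubiquitin ligase of p53, rose by 1.24 and by 0.63. The median of the list was 0.17 (from 0.13 to 0.27 with 1 pair left out), with 19 members raised in the Setd1a line and 10 in the Bod1L line. With 1 pair left out 0 to 4 passed, and the median was 0.27 without the Bod1L EpiSC pair of replicate 1 and 0.26 without the Setd1a EpiSC pair of replicate 2. In the apoptosis list of 20, the BH3-only genes Bmf (-0.91 ± 0.19) and Hrk (1.41 ± 0.30) moved apart. The interferon list had 3 of 23 lower: Psmb8, Gbp2 and the transcription factor gene Irf1 (-0.93 ± 0.15; adjusted p = 0.0125), which was at 17.6, 24.4 and 83.6 CPM without Setd1a against 30.1, 58.4 and 120 CPM and passed in 11 of the 12 fits. Of the list 0 to 5 passed in those fits.

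**Figure D5:**
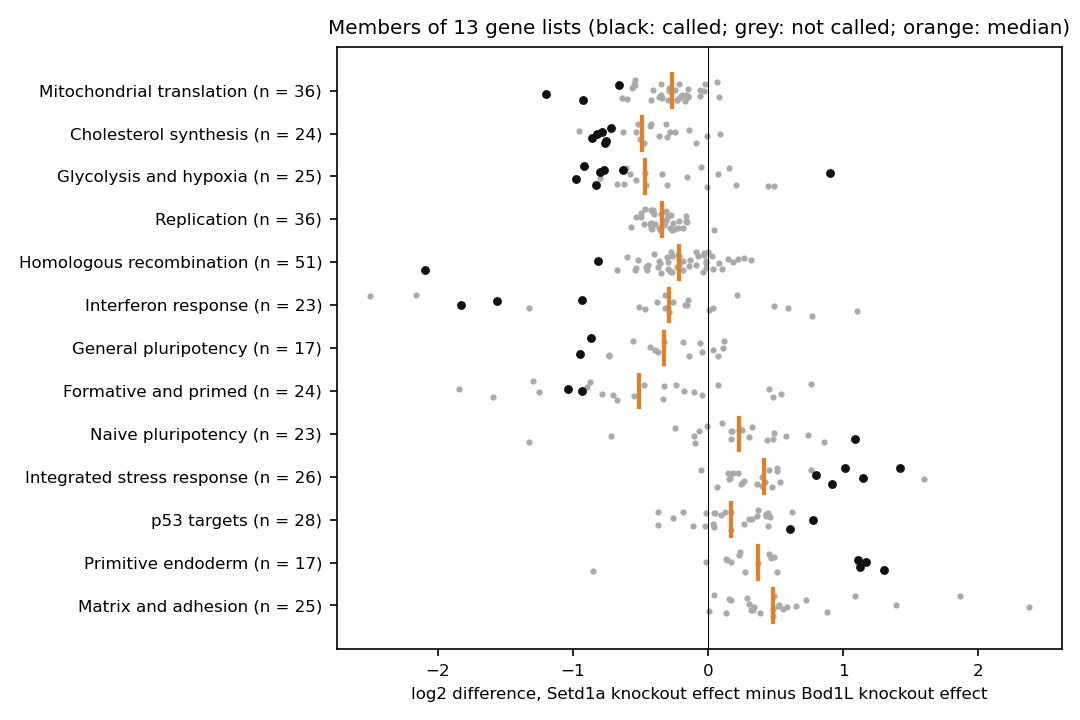
Log2 difference (horizontal) of every tested member of 13 gene lists, called genes in black, others in grey, and the list median as an orange bar. Cholesterol synthesis has its median at -0.49 with 6 called genes, and the integrated stress response at 0.41 with 5.

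General pluripotency had 2 of 17 lower, Utf1 (-0.95 ± 0.22) and the RNA-binding Lin28a (-0.86 ± 0.20; adjusted p = 0.0497), and formative or primed genes 2 of 24, the kinase gene Pim2 (-1.03 ± 0.23) and Zic2 (-0.93 ± 0.21), with a median of -0.51 and 19 below 0. In that list the median was -0.13 in 2i, -1.01 in FCS and -0.36 in EpiSC medium. With 1 pair left out, 0 to 3 of the general and 0 to 5 of the formative list passed. The nodal antagonist Lefty1, in the formative and nodal lists, was at -1.84 ± 0.50 (adjusted p = 0.0777). The nodal list had 1 of 15 lower, Foxh1 (-0.72 ± 0.16), the transcription factor that carries SMAD signals. Of 23 naive genes 1 was higher, Tbx3 (1.08 ± 0.21; adjusted p = 0.0242), whose pairs did not overlap. Dppa3, another naive gene, was at -1.32 ± 0.37 (adjusted p = 0.0871). Among 15 genes of DNA methylation, Mbd3 of the NuRD complex was lower (-0.61 ± 0.13) and the dioxygenase gene Tet2 was at 0.86 ± 0.20 (adjusted p = 0.0504).

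Primitive endoderm had 4 of 17 higher (median 0.37): the basement membrane genes Col4a1 (1.12 ± 0.25), Col4a2 (1.30 ± 0.26) and Lama1 (1.11 ± 0.24; adjusted p = 0.0357), and the receptor gene Pdgfra (1.17 ± 0.21; adjusted p = 0.0184). Lama1 rose in all 6 Setd1a pairs, by 0.37 to 1.75, and its Bod1L pairs ran from -0.53 to 0.55. In bulk RNA, more cells of a type and more RNA per cell cannot be told apart. Feeder and fibroblast genes had 2 of 17 higher, Col3a1 and Col5a1 (1.31 ± 0.23; adjusted p = 0.0175), a median of 0.72 and 9 raised by Setd1a loss. The list summed to 1093 to 3200.2 CPM in Setd1a wild type and 1092 to 10771 in knockout cells, and to 1493 to 9194 and 819 to 7509 CPM in the Bod1L line, and its part in the matrix gene values was not tested. All 25 tested genes of the matrix and adhesion list were above 0 (median 0.48), none passed, and 19 were raised by Setd1a loss. Without the Setd1a EpiSC pair of replicate 1, which holds the library that stood apart, the medians were 0.26 for matrix genes and 0.20 for primitive endoderm, of which none passed. No primitive endoderm gene passed in 4 of the other 11 such fits either, without the Bod1L pair of 2i replicate 1, FCS replicate 2 or EpiSC replicate 1 or the Setd1a pair of 2i replicate 1, and up to 4 passed in the rest. The primitive endoderm median was 0.23 without the Bod1L FCS pair of replicate 2.

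Growth factor response genes had 2 of 23 higher, Ptgs2 and Phlda1. Imprinted genes had 2 of 25 higher, Plagl1 (0.83 ± 0.17) and Peg10 (0.87 ± 0.20). The retinoic acid list had 1 of 20 in each direction, Crabp2 and the synthesis enzyme gene Aldh1a3 (1.39 ± 0.28), which rose by 0.66 in the Setd1a line and fell by 0.73 in the Bod1L line. The mesendoderm, trophectoderm and Wnt target lists gained their calls from Cdx2, Tbx3 and Pdgfra. Among SETD1 and MLL complex subunits Bod1l alone passed of 23. The neural (14), germline (30), Hox (28), 2-cell-like (21), replication-dependent histone (18) and Polycomb (24) lists had no call. Among Hox genes 26 were above 0 and 2 below (median 0.45, and 0.24 to 0.73 with 1 pair left out). Histone genes had 3 above and 15 below (median -0.41, and -0.80 to -0.14). Both lists were low, summing to at most 215 and 68.1 CPM in a library. Medians were 0.26 for the neural, -0.04 for the germline and -0.04 for the Polycomb list. The 2-cell-like genes, which mark a rare early-embryo state, had a median Setd1a effect of 2.67 with 20 of 21 raised and a median Bod1L effect of 1.61 with 5 raised, and a median difference of 0.65, which ran from 0.41 (without the Setd1a EpiSC pair of replicate 2 or the Bod1L FCS pair of replicate 1) to 1.21 (without the Setd1a EpiSC pair of replicate 1). Poly(A) selection also bears on the histone counts and was not tested.

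In single media, with 2 pairs against 2, 20 genes (0.0871%) passed in 2i, 1 (0.00436%), Bod1l, in FCS and 7 (0.0305%) in EpiSC medium. In 2i 5 were lower (0.0218%) and 15 higher (0.0654%), and in EpiSC medium 2 were lower (0.00871%) and 5 higher (0.0218%). In 2i the lowest were Oasl2 (-2.89 ± 0.46; adjusted p = 0.0265), Dppa3 (-2.54 ± 0.33; adjusted p = 0.0101) and Pdk1 (-1.69 ± 0.30; adjusted p = 0.0418). Dppa3, a maternal and naive factor, went from 95.7 and 78.5 CPM to 11.4 and 9.29 without Setd1a, and from 32.0 and 49.6 to 20.5 and 37.2 without Bod1L. The highest in 2i were Chit1 (3.95 ± 0.43; adjusted p = 0.00235), Lbp (3.68 ± 0.65; adjusted p = 0.0418) and the glycerol channel gene Aqp9 (3.33 ± 0.49; adjusted p = 0.015). Chit1, for a chitinase, went from 12.9 and 14.0 to 85.8 and 98.1 CPM without Setd1a and held at most 1.73 CPM in the Bod1L line.

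In EpiSC medium Tex14 (-3.36 ± 0.49; adjusted p = 0.0338), a germ cell gene at under 1 CPM in Bod1L wild type, and Bloc1s6 (-1.56 ± 0.24) were lower. Tie1 (3.69 ± 0.59), Trim66 (2.35 ± 0.36) and Bod1l (2.32 ± 0.31) were the highest. Whether the difference itself depends on the medium was tested with edgeR over all genes, and none passed. Of the 22953 genes 858 had an unadjusted p below 0.05, which is a share below 0.05. DESeq2 called 27.

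The lines also differed before any knockout. Between wild-type libraries of the lines 2791 genes (12.2%) passed, 1041 lower (4.54%) and 1750 higher (7.62%) in the Setd1a line, in a fit without pairs, and this comparison shares its wild-type libraries with the difference described here. Of the 170 higher genes 146 had a lower wild-type level in the Setd1a line, against 53.1% of all genes tested, and of the 135 lower genes 48 had. Medians over genes of the mean CPM were 10.9 and 22.8 in wild type and knockout of the Setd1a line for the higher genes, and 19.0 and 19.7 in the Bod1L line. For the lower genes they were 41.9 and 18.4, and 37.9 and 29.3. Because a high or low wild-type value enters both measures, this is a description and not a test. Median exon length per gene was 2806 for the lower, 6334.5 for the higher and 2997 for all genes tested. Over genes of at least 5 CPM, the median difference of single chromosomes lay between -0.10 on chromosome 7 and -0.0020 on chromosome X.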

How the data were processed

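Poly(A)-selected RNA was read as strand-specific single-end libraries. The deposited whole-number counts per gene were made with featureCounts 1.5.2, counting on the reverse strand, per the file headers, after GSNAP alignment to GRCm38, per the submitters' processing notes. Of 49763 table lines, 92 spike-in lines, all at 0, were removed, and 345 genes had no symbol in GENCODE M21. The members and lists were chosen with earlier results of these data known.

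Counts of the 24 libraries were fitted with edgeR 4.0.16 (R 4.3.3; quasi-likelihood F test, TMM, filterByExpr with a minimum count of 10, Benjamini-Hochberg over 22953 genes), with 12 pair blocks and 6 knockout effects, leaving 6 residual degrees of freedom. The script was first tested on simulated data. The pairing comes from shared replicate numbers and from the data: deviations of same-numbered knockout and wild-type libraries over 12303 genes correlated at 0.558, 0.423 and 0.808 in the Setd1a line (2i, FCS, EpiSC) and at 0.827, 0.712 and 0.803 in the Bod1L line. CPM values are counts-per-million of the TMM-scaled library size. Named genes were the 12 lowest and 12 highest called differences of protein-coding genes of at least 1 CPM, every called list gene, up to 3 of largest difference in a list, the 3 lowest and highest called in a medium, and the targeted genes. Genes called in all 12 fits with a pair left out were added after their values were seen. Alternatives used limma 3.58.1 (voom), DESeq2 1.42.0, other scaling, no filter, all 36 libraries, 1 effect per line, and pairs or runs left out. Mll2 libraries entered only the fit on 36. The promoter windows come from RefSeq.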

Additional observations from a re-analysis of the deposited data

Results flagged for a closer look

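The Setd1a and Bod1L effects differed by the test of the difference itself for 305 genes on average over media, for 20 genes in 2i, for 1 gene in FCS (Bod1l) and for 7 genes in EpiSC medium. Among 50 groups of 6 pair differences, 3 held a pair far from the other 5, and chance alone gives about 1 in 20. Blnk stood at 3.15 in the Bod1L EpiSC pair of replicate 1. Hpdl stood at -0.0616 and Bod1l at -0.24 in the Setd1a FCS pair of replicate 1.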

How the results depend on the processing

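The averaged difference was called for 305 genes with the pairs as a replicate block and 1 without, 77 with voom, 997 with DESeq2, 1100 with no filter, 179 with 36 libraries, 51 with 1 effect per line, 1 in the earlier run and 102 in the later run. Without the replicate block the Setd1a effect had 1927 calls, the Bod1L effect 408, 2i 0 and EpiSC medium 1. In 2i, FCS and EpiSC medium DESeq2 gave 156, 164 and 47 calls, and no filter 256, 265 and 168. Voom gave 4 in 2i and 1 in EpiSC medium, and 36 libraries gave 11 and 1. Medium dependence had 27 calls with DESeq2 and 97 with no filter. In the earlier run the Setd1a and Bod1L effects had 1656 and 984 calls, and in the later run 3287 and 750. With 1 pair left out, calls ran from 36 to 1180 for the averaged difference, 4373 to 7215 for the Setd1a effect, 895 to 2061 for the Bod1L effect, 0 to 80 in 2i, 1 to 32 in FCS, 0 to 33 in EpiSC medium and 0 to 9 for medium dependence. Signs reversed for Tex14 (0.45, earlier run), Det1 (0.15) and Gatb (0.0127) in the later run, and Ccdc191 (-0.0187 without the block, -0.15 in the later run, -0.10 to 0.15 with 1 pair left out). The cause was not tested. The 2 pairs per medium limit the single-medium fits, and genes under 1 CPM, such as Col3a1 in 2i, rest on few reads.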
